A study of Mus musculus with 18 samples.

Results

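Arg1, Chil3, Ly6c2, Plac8, Cd14, Saa3 and Nos2 are 7 genes that are commonly read as marks of monocytes entering injured tissue and of the macrophages they first become. They were picked by name after Arg1 and Chil3 had been seen among the largest rises 24 h after infarction, so their AMI 24 h values are given here as a description, without a test. The sham mice were part of that comparison too, so tests of Arg1 and Chil3 against sham are not independent of the choice. All 7 had a row among the 24419 symbols of the expression table. All 7 also reached 1 FPKM (fragments per kilobase of transcript, scaled to the mapped fragments of the mouse) in at least 1 mouse, the filter that left 13333 genes for testing. Arg1, Chil3, Plac8 and Saa3 passed it only through mice taken at 6 h or later, whereas Ly6c2, Cd14 and Nos2 were above 1 FPKM in each of the 18 mice.

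The study followed acute myocardial infarction (AMI) in C57BL/6 mice 8 weeks old, made by tying off the left anterior descending coronary artery near its origin under sodium pentobarbital. There were 6 groups of 3 mice: sham-operated mice, which the labels call controls, and mice sampled after ligation, called AMI 10 min, AMI 1 h, AMI 6 h, AMI 24 h and AMI 72 h. Polyadenylated RNA was sequenced with no sorting of cells, from tissue that the labels call heart and the study describes as infarcted left ventricle, and infarct size per mouse was not given in the sources used here. In such bulk RNA, more cells of a type and more RNA of a gene per cell cannot be told apart.

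Blood monocytes with high surface Ly6C enter an infarct through chemokines such as Ccl2 acting on their receptor Ccr2, and there they turn into macrophages. Early macrophages can meet arginine with opposed enzymes: arginase 1 (Arg1) splits it into ornithine and urea, and the inducible nitric oxide synthase (Nos2) makes nitric oxide from it. Chil3 is a secreted chitinase-like lectin, Ly6c2 a surface protein held by a lipid anchor, Plac8 a small cysteine-rich protein of myeloid cells, Cd14 the co-receptor that hands lipopolysaccharide to Tlr4 and Ly96, and Saa3 a serum amyloid A protein made outside the liver. Neutrophils arrive before monocytes, and several of these genes are also known from neutrophils.

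FPKM summed to between 542418 and 600467 per mouse, and 15926 to 17287 genes were above 0. The files hold no counts, so the depth is known only in relative terms, from 0.813 to 1.32 of the first sham mouse. The 10 cardiomyocyte genes used to check the tissue summed to between 72395 and 76453 FPKM in sham hearts, and to between 24135 and 31470 FPKM at 72 h. Transcripts of these muscle genes thus made up less of the RNA at 72 h. Over all tested genes, the median log2 fold change against sham was -0.08 in the AMI 6 h mice, 0.13 in the AMI 24 h mice and 0.29 in the AMI 72 h mice, and it was 0.33 between 6 h and 72 h. Scaling the mice by a median of ratios moved these last values to 0.04 and to -0.00026, so changes of the 7 genes late in the series are read beside them.

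Members of this set have near copies in the genome, which bears on what their FPKM can hold. Ly6c2 (chr15:75108158-75111970, mm10) and Ly6c1 (chr15:75044018-75048830) lie on the same strand of chromosome 15. Their longest annotated transcripts matched at 802 of 822 aligned bases (97.6%), and 5.79% of the 150-base stretches of Ly6c2, the length of 1 sequencing read, occurred unchanged in Ly6c1, the longest of them spanning 188 bases. The first 120 coding bases are printed because they hold 6 of the 9 differences in the 393-base coding sequence. They are taken from the GENCODE M21 transcripts, 5′ to 3′, with capitals at the bases that differ:
Ly6c2: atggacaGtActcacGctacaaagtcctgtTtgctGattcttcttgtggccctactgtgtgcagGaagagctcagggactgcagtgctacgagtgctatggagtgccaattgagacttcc
Ly6c1: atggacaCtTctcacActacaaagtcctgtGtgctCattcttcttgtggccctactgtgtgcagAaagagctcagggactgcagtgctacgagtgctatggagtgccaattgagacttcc
Chil3 (chr3:106147554-106167564) has a neighbour of the same kind, Chil4 (chr3:106201490-106219507), with 94.7% identity over 1535 aligned bases. No 150-base stretch was shared there, the longest common run being 136 bases. For Arg1, Saa3 and Nos2, the relatives compared (Arg2, Saa1, Saa2, Nos1 and Nos3) shared no 150-base stretch either, so a whole read of one could not come unchanged from the other.

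The promoters of these pairs are shown because the partners differed in level, and that of Saa3 because it holds the letters of a factor of acute-phase genes. The windows are the 250 bases before each annotated start in RefSeq (GRCm38.p6), 5′ to 3′ on the strand of the gene, and 4 of the 7 genes had one that could be used. Capitals mark matches, on either strand, to the searched motifs TATAAA (the core promoter box), TTNNGCAA (C/EBP), GAGGAAGT (PU.1) and TTCNNNGAA (STAT):
Ly6c2, chr15:75111972-75112221, minus strand: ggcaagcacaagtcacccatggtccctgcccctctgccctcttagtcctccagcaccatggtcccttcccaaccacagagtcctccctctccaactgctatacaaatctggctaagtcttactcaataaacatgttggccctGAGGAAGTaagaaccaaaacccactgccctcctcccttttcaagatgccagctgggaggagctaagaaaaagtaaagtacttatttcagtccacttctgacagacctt
Ly6c1, chr15:75048838-75049087, minus strand: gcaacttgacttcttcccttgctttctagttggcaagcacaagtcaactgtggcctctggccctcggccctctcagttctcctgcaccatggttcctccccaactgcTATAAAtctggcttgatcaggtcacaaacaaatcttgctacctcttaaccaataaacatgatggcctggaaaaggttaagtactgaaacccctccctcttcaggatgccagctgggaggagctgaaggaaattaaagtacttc
Chil3, chr3:106167565-106167814, minus strand: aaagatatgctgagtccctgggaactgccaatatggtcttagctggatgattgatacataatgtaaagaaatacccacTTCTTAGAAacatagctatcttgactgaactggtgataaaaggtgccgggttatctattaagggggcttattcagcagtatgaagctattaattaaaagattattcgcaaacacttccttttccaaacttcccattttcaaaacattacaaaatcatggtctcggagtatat
Chil4, chr3:106219480-106219729, minus strand: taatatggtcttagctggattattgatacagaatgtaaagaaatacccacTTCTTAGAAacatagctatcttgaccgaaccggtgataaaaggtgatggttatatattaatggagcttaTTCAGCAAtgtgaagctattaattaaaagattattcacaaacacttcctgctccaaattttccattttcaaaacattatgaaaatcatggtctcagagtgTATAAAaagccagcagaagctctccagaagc
Saa3, chr7:46715677-46715926, minus strand: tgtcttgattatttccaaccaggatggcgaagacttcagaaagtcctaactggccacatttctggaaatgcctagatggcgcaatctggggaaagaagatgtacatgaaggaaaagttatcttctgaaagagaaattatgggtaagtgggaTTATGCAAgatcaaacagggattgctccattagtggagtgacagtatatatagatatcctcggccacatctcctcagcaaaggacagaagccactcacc
The Ly6c2 window held the PU.1 letters 108 to 101 bases before the start, a match found in 2.44% of the 27025 windows of this length. The Ly6c1 window, 80.2% identical over 212 aligned bases, lacked them and held the letters TATAAA instead, 143 to 138 bases before the start, as 12.97% of windows do. Chil3 and Chil4 were 91.0% identical over 221 aligned bases and held the same STAT letters (7.18% of windows). Chil4 also held a C/EBP match and, 31 to 26 bases before its start, TATAAA. The 2 windows are offset, since the STAT letters lay 172 to 164 bases before the Chil3 start and 200 to 192 before that of Chil4. With that offset the place of the Chil4 TATAAA falls partly past the Chil3 window, so the windows do not compare this box. Saa3 held C/EBP letters 99 to 92 bases before its start (9.55% of windows). Plac8 held no match to any of the 7 motifs searched, which also included that of NF-kappaB, AP-1 (TGANTCA) and the hypoxia response element (ACGTG). A match is a stretch of letters and shows no binding.

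Across the series, 6 of the 7 genes went from low levels in sham hearts to their highest group means at 24 h or 72 h, while Nos2 went down first. None of the 7 passed the test at 10 min (limma, adjusted p under 0.05), where 0.248% of all tested genes were called higher and 0.0978% lower. At 1 h, Cd14 rose and no other member was called, beside 0.669% of all genes higher and 0.0526% lower. At 6 h, Arg1, Chil3, Ly6c2, Plac8, Cd14 and Saa3 rose and Nos2 fell, beside 11.6% of all genes higher and 16.8% lower. At 72 h the same 6 genes were higher than sham and Nos2 was not called, but by then 53.1% of all genes were called higher and 24.2% lower. Because 6 h was tested against both sham and 1 h, and 72 h against both sham and 6 h, these tests share mice and are not separate evidence.

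**Figure D1:**
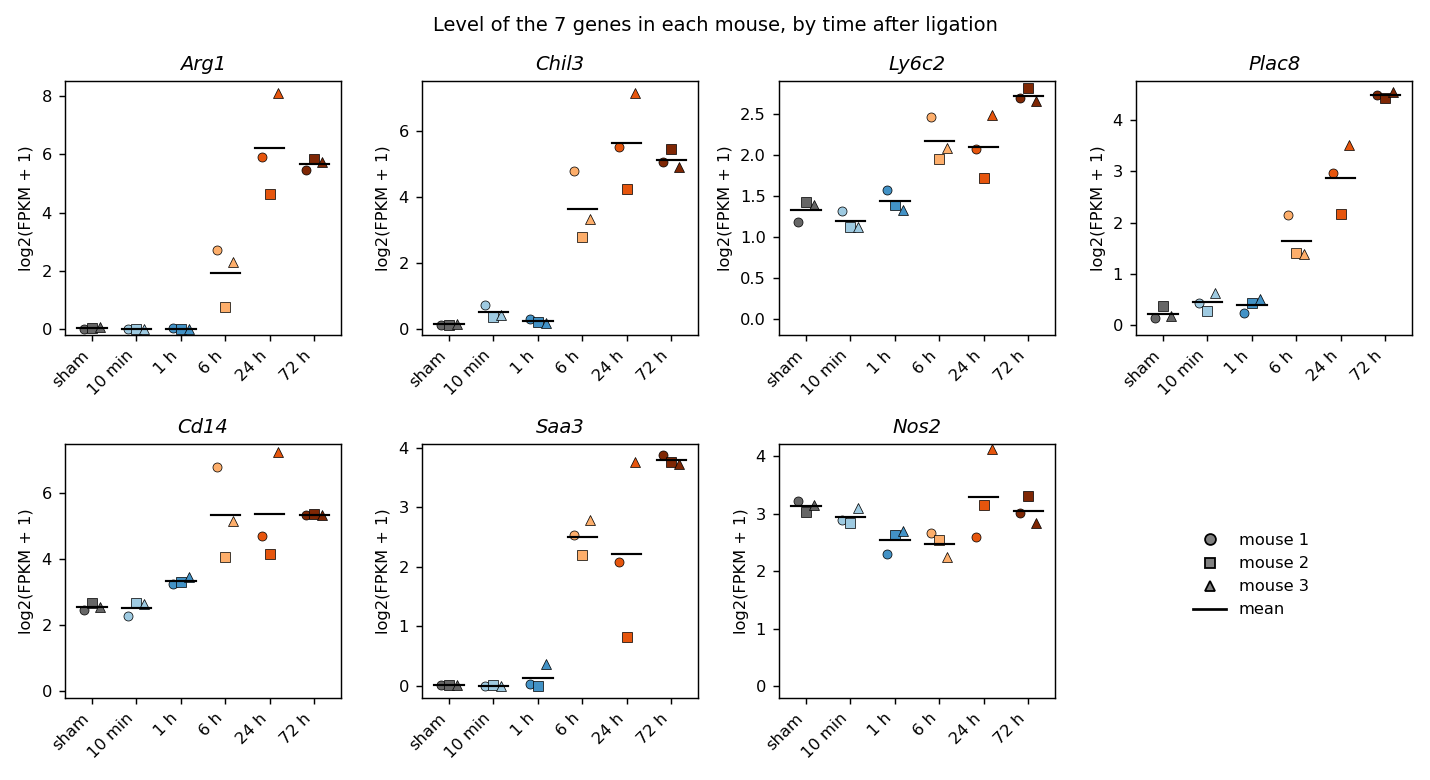
Each panel plots 1 gene as log2(FPKM + 1) on the vertical axis against the 6 groups, with a symbol for each of the 3 mice and a line at their mean. Arg1, Chil3, Plac8 and Saa3 sit near 0 until 1 h, the AMI 24 h mice lie far apart with the third mouse on top in all 7 panels, and the AMI 72 h mice lie close together.

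Arg1 (chr10:24915221-24927484) was close to absent before 6 h. The sham mice had 0, 0.0214 and 0.0576 FPKM, the AMI 10 min mice 0, 0.016 and 0 FPKM, and the AMI 1 h mice 0.0245, 0.0106 and 0 FPKM. At 6 h the 3 mice had 5.61, 0.685 and 4.01 FPKM. Every AMI 6 h mouse was above every earlier mouse, and they differed among themselves by 8.19-fold. At 24 h the values were 59.1, 23.8 and 276 FPKM, and at 72 h they were 43.0, 56.0 and 52.7 FPKM. The higher 24 h mean came from the third AMI 24 h mouse, since the other two averaged 41.4 FPKM, below the AMI 72 h mean of 50.6 ± 6.81 FPKM (SD, n = 3).

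On the log2(FPKM + 1) scale, Arg1 at 6 h was 1.90 above sham (SE 0.45, limma adjusted p = 0.0211) and 1.92 above 1 h (SE 0.45, adjusted p = 0.0258). Both calls were thin, and the first reuses the sham mice of the comparison that led to the choice of Arg1. The first was lost without any 1 of the 3 sham mice or without the third AMI 6 h mouse (adjusted p from 0.053 to 0.0691), and the second without any 1 of the 3 AMI 1 h mice or without the first or the third AMI 6 h mouse (0.0526 to 0.0831). With no filter on low genes the second was lost as well (adjusted p = 0.055). Arg1 then rose by a further 3.75 between 6 h and 72 h (SE 0.44, adjusted p = 0.000135), a comparison in which 50.3% of all genes were called higher and 16.7% lower. At 72 h it stood 5.64 above sham (SE 0.10, adjusted p = 8.73e-09), at place 11 of the 13333 genes when ordered by this difference. The 24 h difference of 6.18, which led to the choice of the gene, was the first of all 13333.

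Nos2 (chr11:78920787-78960254) went against the name of the set. It was already present in sham hearts, at 8.35, 7.18 and 7.91 FPKM. The AMI 10 min mice had 6.42, 6.14 and 7.56 FPKM, the AMI 1 h mice 3.91, 5.17 and 5.47 FPKM, and the AMI 6 h mice 5.30, 4.82 and 3.73 FPKM. Every AMI 1 h and AMI 6 h mouse was thus below every sham mouse. The fall was 0.66 on the log2 scale at 6 h (SE 0.13, adjusted p = 0.0109). At 1 h the value was -0.60, which missed the threshold (SE 0.12, adjusted p = 0.0976). The 6 h call was lost without the first sham mouse (-0.61, adjusted p = 0.0528) and in 1 fit over all 18 mice (adjusted p = 0.0654), and between 1 h and 6 h no change was called (-0.06, adjusted p = 0.817).

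At 24 h Nos2 had 5.01, 7.84 and 16.4 FPKM, so 1 mouse exceeded the sham range and another lay below it. At 72 h it had 7.09, 8.90 and 6.13 FPKM, overlapping sham, and its value of -0.08 was not called (SE 0.12, adjusted p = 0.542). That reading depended on the scaling, because Nos2 at 72 h was called lower after median-of-ratios scaling (-0.36, adjusted p = 0.0221) and after quantile normalization (-0.54, adjusted p = 0.00436). Relative to 6 h it was 0.57 higher at 72 h (SE 0.16, adjusted p = 0.0121), against a median shift of all genes of 0.33, and under those scalings this call was lost (0.22 and 0.06), as it was in 1 fit over all mice (adjusted p = 0.0621). In each of the AMI 24 h and AMI 72 h mice there was more Arg1 than Nos2, from 3.03 to 16.8 times as much FPKM, while at 6 h the ratio ran from 0.142 to 1.07.

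Of the 17 tested genes that carry, make or use arginine and its products, without Arg1 and Nos2, 8 rose and 2 fell at 6 h. Of all genes, 11.6% were called higher and 16.8% lower there. At 24 h, 6 rose and 1 fell, where 26.2% of all genes were called higher and 11.4% lower. At 72 h, 10 rose and 5 fell, near the shares of all genes there (53.1% and 24.2%). Arg2, the mitochondrial arginase, rose by 1.85 at 6 h (SE 0.43, adjusted p = 0.0199), from 0.0551 ± 0.0507 to 3.44 ± 3.06 FPKM. Slc7a2, which carries arginine into macrophages, had 1.23 ± 0.07 FPKM in sham and 1.79 ± 0.634 FPKM at 6 h, which was not called (adjusted p = 0.218), and it had risen by 1.73 at 72 h (SE 0.10, adjusted p = 6.53e-07). Ddah1 (2.08), which degrades inhibitors of nitric oxide synthases, and Sat1 (2.43), which acetylates polyamines, also rose at 72 h. Nos3, the endothelial synthase and at 51.8 ± 0.824 FPKM in sham far above Nos2, fell by 0.34 at 72 h (adjusted p = 0.0093), and Pts, which makes the cofactor of these synthases, fell by 0.52.

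Chil3 was the member with the largest log2 difference at 6 h. The sham mice had 0.0817, 0.0836 and 0.11 FPKM, and the AMI 6 h mice 26.4, 5.87 and 9.10 FPKM. This was 3.51 above sham (SE 0.45, adjusted p = 0.00259) and 3.41 above 1 h (SE 0.45, adjusted p = 0.00447). In the 6 h against 1 h comparison, 9.32% of all genes were called higher and 11.2% lower. Before that, the AMI 10 min mice had 0.652, 0.268 and 0.333 FPKM and the AMI 1 h mice 0.23, 0.14 and 0.127 FPKM. All 6 of these lay above the sham range, but neither difference was called (0.37, adjusted p = 0.187, and 0.09, adjusted p = 0.578).

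At 24 h the Chil3 levels were 44.6, 17.9 and 142 FPKM, a difference from sham of 5.51 that ranked at place 5 of 13333. At 72 h they were 32.4, 42.3 and 28.6 FPKM, 5.003 above sham (SE 0.13, adjusted p = 1.94e-08). The AMI 72 h mice were each above each AMI 6 h mouse. That step of 1.498 (SE 0.44, adjusted p = 0.0165) was lost without the third AMI 6 h mouse or the second AMI 72 h mouse (adjusted p = 0.0626 and 0.061), and after median-of-ratios scaling (1.11, adjusted p = 0.0675). Chil4 was listed at 0 in all 18 mice. Chil1, a more distant chitinase-like protein, was listed at 0 in the sham mice and rose to 1.178 ± 0.881 FPKM at 6 h (a rise of 1.05, adjusted p = 0.0228). Of the lysosomal chitinase-related genes, Ctbs and Chid1 rose at 72 h by 0.78 and 0.71.

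Ly6c2 changed least among the 6 genes that rose. The sham mice had 1.27, 1.68 and 1.63 FPKM, and the AMI 10 min and AMI 1 h mice had at most 1.99 FPKM. The AMI 6 h mice had 4.54, 2.88 and 3.24 FPKM, the AMI 24 h mice 3.23, 2.28 and 4.62 FPKM, and the AMI 72 h mice 5.51, 6.07 and 5.34 FPKM. The AMI 6 h and AMI 24 h mice overlapped, both groups were above all earlier mice, and the AMI 72 h mice were above all others. The rise was 0.84 at 6 h (SE 0.15, adjusted p = 0.00864) and 1.40 at 72 h against sham (SE 0.10, adjusted p = 2.35e-06). The step from 1 h to 6 h of 0.73 (SE 0.15, adjusted p = 0.0185) was lost without the second or the third AMI 1 h mouse (adjusted p = 0.0752 and 0.066). The step from 6 h to 72 h was 0.56 (SE 0.15, adjusted p = 0.00917) beside the median of 0.33 over all genes, and it was not called after median-of-ratios scaling (0.22, adjusted p = 0.225) or quantile normalization (0.02, adjusted p = 0.919).

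Ly6c1, the partner printed above, is known from endothelial cells and was far more abundant. It had 316 ± 14.2 FPKM in sham, rose to 507 ± 34.7 FPKM at 6 h (0.68 on the log2 scale, adjusted p = 0.00174) and fell to 163 ± 11.6 FPKM at 72 h (-0.95 against sham, adjusted p = 6.45e-06, and -1.63 against 6 h, adjusted p = 4.82e-06). Both genes were thus higher at 6 h, and from 6 h to 72 h Ly6c1 went down as Ly6c2 went up. Ly6c2 was 0.482 ± 0.0564% of the Ly6c1 level in sham, 0.71 ± 0.225% at 6 h, 1.14 ± 0.527% at 24 h and 3.47 ± 0.262% at 72 h. Whether reads of Ly6c1 were part of the low Ly6c2 level before 6 h was not tested. Of the other genes of the Ly6 family, 3 of 12 in the table passed the filter. Beside Ly6c1 these were Ly6a, which rose at 6 h (1.00) and at 72 h (0.23), and Ly6e, which rose at 72 h (1.00). The 72 h value of Ly6a lay below the median of 0.29 over all genes.

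**Figure D2:**
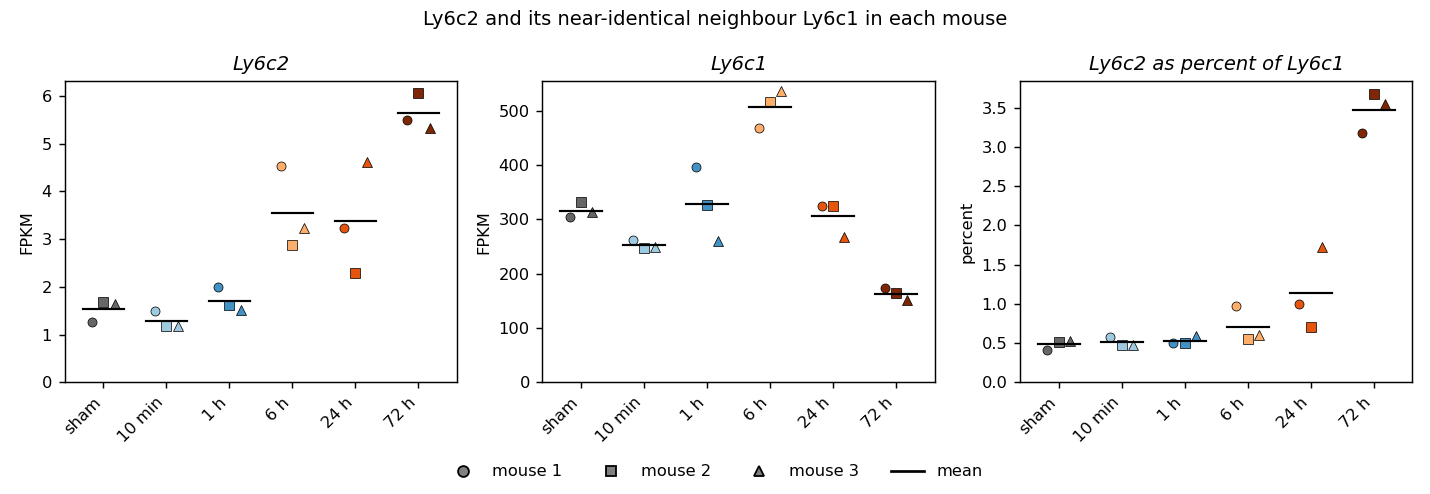
The left and middle panels plot the FPKM of Ly6c2 and Ly6c1 in each mouse against the group, and the right panel plots Ly6c2 as a percentage of Ly6c1. The vertical axes start at 0, the symbols mark the 3 mice and the lines the means, and the AMI 72 h mice have the highest Ly6c2 and the lowest Ly6c1 levels of all mice.

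Plac8 (chr5:100553725-100572245) rose at each step from 6 h on. The sham mice had 0.0929, 0.285 and 0.125 FPKM, the AMI 10 min mice 0.342, 0.209 and 0.541 FPKM, and the AMI 1 h mice 0.178, 0.346 and 0.413 FPKM. The AMI 6 h mice had 3.41, 1.65 and 1.62 FPKM, the AMI 24 h mice 6.81, 3.46 and 10.4 FPKM, and the AMI 72 h mice 21.6, 20.6 and 22.3 FPKM. No mouse of these 3 groups overlapped with a mouse of another group, which held for no other member. Against sham, Plac8 was 1.42 higher at 6 h (SE 0.20, adjusted p = 0.00374) and 4.27 higher at 72 h (SE 0.09, adjusted p = 1e-08). The step from 1 h to 6 h was 1.26 (adjusted p = 0.00889) and that from 6 h to 72 h 2.85 (SE 0.20, adjusted p = 7.87e-06). At 24 h it stood 2.66 above sham, a description only.

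Cd14 was the only member called at 1 h. The sham mice had 4.50, 5.35 and 4.85 FPKM and the AMI 10 min mice 3.87, 5.40 and 5.26 FPKM, which overlapped. At 1 h the 3 mice had 8.45, 8.85 and 9.93 FPKM, each above each sham mouse, a rise of 0.77 (SE 0.09, adjusted p = 0.00775). It kept its call when any 1 of the 6 mice was left out, but not in 1 fit over all 18 mice (adjusted p = 1).

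At 6 h Cd14 was at 110, 15.8 and 34.8 FPKM and at 24 h at 24.99, 16.7 and 151 FPKM, so that 1 mouse of each group stood far above the others. At 72 h the 3 mice were at 39.2, 40.2 and 39.2 FPKM, within 1.03-fold of each other. Cd14 was 2.78 above sham at 6 h (SE 0.59, adjusted p = 0.0144) and 2.78 above sham at 72 h (SE 0.07, adjusted p = 1.94e-08). The 6 h call was lost without the first or the third sham mouse (adjusted p = 0.0529 and 0.0511). The step from 1 h to 6 h was 2.01 (SE 0.59, adjusted p = 0.0489) and was lost without any 1 of the 3 AMI 1 h mice or the third AMI 6 h mouse (0.0825 to 0.13). It was also lost with no filter on low genes (adjusted p = 0.0929), with rescaled sums (0.0518) and with no variance trend (0.0515). Between 6 h and 72 h the difference was 0.00023 (SE 0.56) and was not called, a value that without the first AMI 6 h mouse became 0.72 and was called (adjusted p = 0.043) and without the second became -0.63 (adjusted p = 0.198). Whether Cd14 was higher at 6 h or at 72 h thus depended on which AMI 6 h mice were counted.

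Of 15 genes of the lipopolysaccharide receptor complex and its adaptors, without Cd14, none was called at 1 h and 6 rose at 6 h. At 72 h, 14 rose and 1 (Irak1, -0.37) fell, with a median of 1.07 beside 0.29 for all genes. Of all genes, 11.6% were called higher and 16.8% lower at 6 h, and 53.1% higher and 24.2% lower at 72 h. Tlr4, the signalling receptor, rose at 6 h (1.15, SE 0.25, adjusted p = 0.0155) from 3.03 ± 0.501 to 8.32 ± 3.44 FPKM and reached 13.4 ± 1.69 FPKM at 72 h. Its partner Ly96 was at 2.66 ± 0.596 FPKM in sham and 2.59 ± 0.507 FPKM at 6 h, and it had risen at 72 h (1.07, SE 0.14, adjusted p = 0.000157). Lbp, which delivers lipopolysaccharide to Cd14, rose at 6 h (0.94, adjusted p = 0.00199) and 72 h (0.76, adjusted p = 0.000885), and had a value of -0.13 at 24 h (adjusted p = 0.554). Tlr1 and Tlr2 were the receptors of this list with the largest rises at 72 h (2.66 and 2.27).

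Saa3 (chr7:46711998-46715700) was at most 0.0136 FPKM in the sham mice and 0.011 FPKM in the AMI 10 min mice. The AMI 1 h mice had 0.0256, 0 and 0.292 FPKM, so the first mouse and the third lay above the sham range and the second was at 0. At 6 h they had 4.81, 3.58 and 5.94 FPKM, a spread of 1.66-fold. It was 2.49 above sham (SE 0.15, adjusted p = 0.000255) and 2.37 above 1 h (SE 0.18, adjusted p = 0.000777). At 24 h the mice had 3.23, 0.77 and 12.7 FPKM, a spread of 16.4-fold that was the widest of any member in any group from 6 h on. At 72 h they had 13.7, 12.6 and 12.3 FPKM, 3.77 above sham (SE 0.08, adjusted p = 1e-08) and 1.28 above 6 h (SE 0.15, adjusted p = 0.000151).

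Among the genes related to Saa3, Saa1 was listed at 0 in the sham and AMI 1 h mice, had 0.505, 1.24 and 1.00 FPKM at 6 h (0.92, SE 0.14, adjusted p = 0.00516), and was back at 0.0721 ± 0.0638 FPKM at 72 h, 0.82 below 6 h (adjusted p = 0.00195). Saa3 and Saa1 were thus both called at 6 h, and from 6 h to 72 h they were called in opposite directions. Saa4 was listed at 0 in all mice. The formyl peptide receptors Fpr1 and Fpr2, of which Fpr2 also binds serum amyloid A, were above sham at 72 h (1.07 and 1.23). Cd36, a scavenger receptor that heart muscle and endothelium also use for fatty acids, fell by 0.92 from 401 ± 17.0 to 213 ± 16.4 FPKM. Of the 5 tested genes of this family and its receptors, without Saa3, 4 were already called higher at 6 h, beside 11.6% of all genes. From 6 h to 72 h, 0 of the 5 rose and 2 fell, beside 50.3% of all genes called higher and 16.7% lower.

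**Figure D3:**
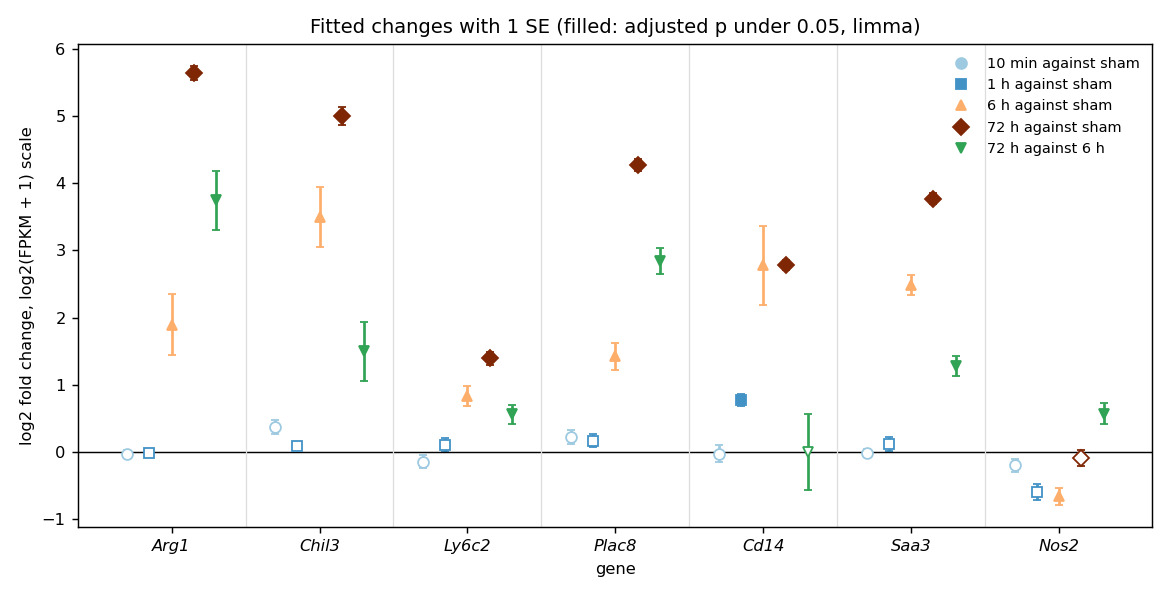
The vertical axis gives the fitted log2 fold change on the log2(FPKM + 1) scale with bars of 1 SE for 5 comparisons, and the horizontal axis gives the gene. Filled symbols had an adjusted p under 0.05 (limma), and open ones did not, among them every 10 min value, the 72 h value of Nos2 against sham and the 72 h against 6 h value of Cd14.

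Mice of the same group differed in step across the members. The first AMI 6 h mouse was the highest of its group for 6 of the 7 genes and the second the lowest for 5. The third AMI 24 h mouse was the highest for all 7 and the second the lowest for 6. These mice also differed in the markers of neutrophils, the granulocytes that enter an infarct early. The 13 neutrophil genes in the table summed to 2.78 to 5.44 FPKM in sham, to 1011, 120 and 382 FPKM in the AMI 6 h mice, to 218, 46.5 and 1004 FPKM in the AMI 24 h mice, and to 61.7 to 74.9 FPKM at 72 h. The granule genes Mpo and Elane, made while neutrophils form in bone marrow, were listed at 0 in all AMI 6 h mice and were below 0.17 FPKM in every mouse, and Ly6g was not used here.

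The order of the 3 AMI 24 h mice was the same for the neutrophil sum and for 6 of the 7 members, all but Nos2. At 6 h it was the same for Arg1, Chil3, Ly6c2 and Cd14, and the sum of 10 general leukocyte genes had that order too. At 24 h the leukocyte sum had the order of 1 member only, Nos2. At 72 h 1 of the 7 members, Arg1, had the order of the neutrophil sum. The macrophage sum, taken over 11 genes without Cd14, spread much less and had 512, 612 and 587 FPKM in the AMI 24 h mice, the third mouse not being the highest. It had 277 to 332 FPKM at 6 h, overlapping the sham range of 292 to 333 FPKM, and 3185 to 3894 FPKM at 72 h. When each mouse was expressed as its deviation from the mean of its group on a log2 scale (18 mice), the 6 rising members followed the neutrophil sum with Pearson's r between 0.779 and 0.918, the sum of 10 general leukocyte genes with r between 0.557 and 0.911, and the macrophage sum with r between -0.0177 and 0.249. For Nos2 the values were 0.37, 0.574 and 0.0312. The same 6 genes ran against the sum of 10 cardiomyocyte genes (r from -0.716 to -0.501) and that of 7 resident macrophage genes (-0.504 to -0.27). Nos2 had r of -0.569 and -0.739 with these sums and 0.592 with 8 endothelial genes, with which the other 6 had r between -0.129 and 0.126. These are descriptions over libraries that share their tissue sample, and the part of neutrophils or of infarct sampling in the levels of the 7 genes was not tested.

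**Figure D4:**
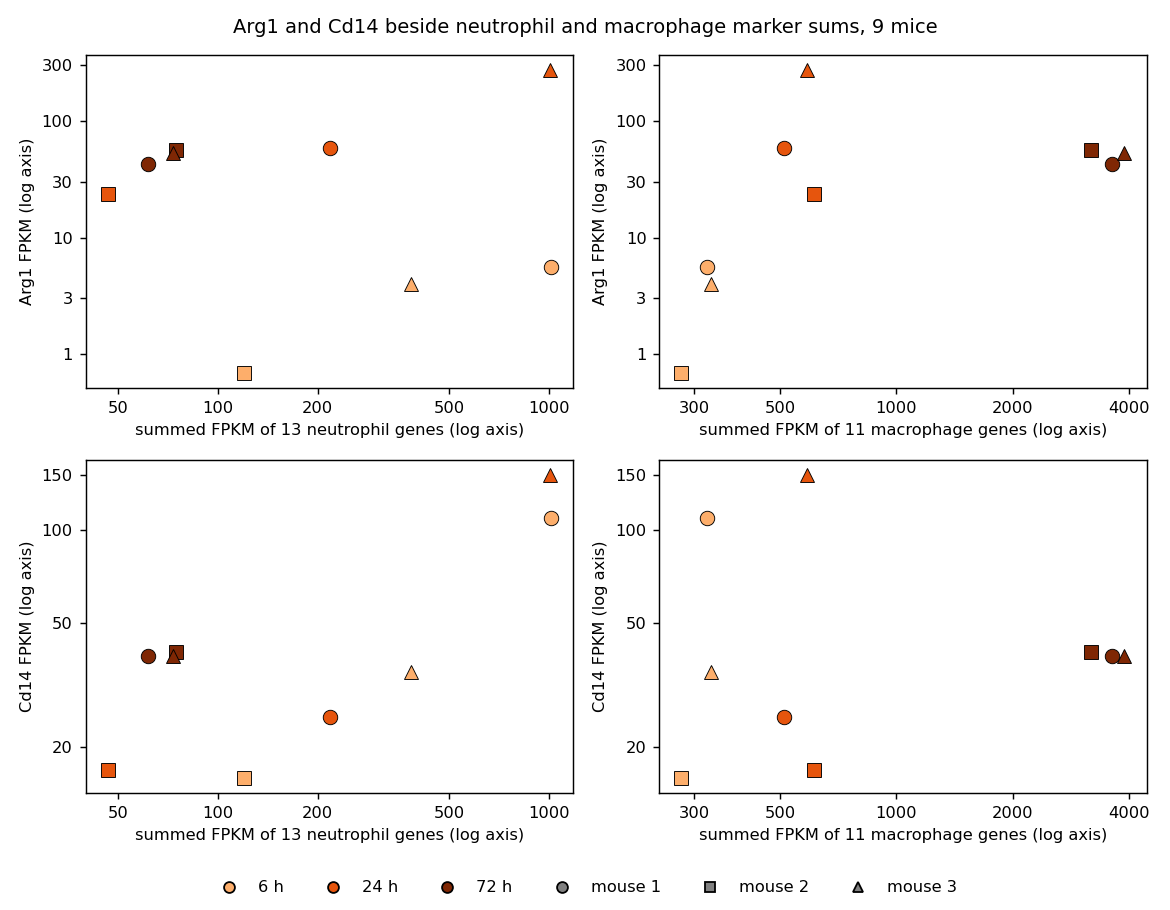
For the 9 mice from 6 h on, Arg1 (top) and Cd14 (bottom) in FPKM are plotted against the summed FPKM of 13 neutrophil genes (left) and of 11 macrophage genes (right), all on log axes, with colour for the group and symbol for the mouse. Within the AMI 6 h and AMI 24 h groups the points rise to the right on the left panels, and the AMI 72 h mice lie low on the neutrophil axis and far right on the macrophage axis.

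Markers of other cells moved as well. The 10 general leukocyte genes, such as Ptprc (CD45), summed to 59.1 to 81.5 FPKM in sham, 80.3 to 264 FPKM at 6 h, 316 to 715 FPKM at 24 h and 1073 to 1237 FPKM at 72 h. The 8 T and NK cell genes in the table were each below 1 FPKM in all mice up to 24 h, and 7 of the 8 still were at 72 h. The 10 fibroblast genes summed to 256 to 288 FPKM in sham, 303 to 417 FPKM at 24 h and 3253 to 4359 FPKM at 72 h. Not all sums rose. The 8 endothelial genes had 1436 to 1457 FPKM in sham, 1980 to 2181 FPKM at 6 h and 1055 to 1141 FPKM at 72 h. The 5 erythroid genes had 2234 to 4133 FPKM in sham and 1483 to 2199 FPKM at 72 h.

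Set against the leukocyte sum, the group with the highest mean ratio was not the same for all members. Per 100 FPKM of that sum, Cd14 was highest at 6 h (28.6 ± 11.4) and had fallen to 3.46 ± 0.201 at 72 h, below its sham ratio of 7.12 ± 1.02. Saa3 was also highest at 6 h (3.49 ± 1.45) and came to 1.13 ± 0.133 at 72 h. Arg1 and Chil3, chosen for their 24 h levels, had 21.4 ± 16.0 and 13.1 ± 7.39 at 24 h, and their ratios in the AMI 72 h mice were 4.40 ± 0.347 and 2.99 ± 0.444. At 6 h Chil3 had 10.0, 7.31 and 6.45, which overlapped with its 14.1, 5.18 and 19.9 at 24 h.

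Plac8 had ratios of 1.498 ± 0.491, 1.54 ± 0.579 and 1.88 ± 0.189 at 6 h, 24 h and 72 h, with overlapping ranges. The ranges also overlapped against Ptprc alone and against the macrophage genes, but there the means moved more from 6 h to 24 h. Against Ptprc the mean ratio of Plac8 was 1.85 times as high at 24 h as at 6 h. Against the macrophage genes it was 1.72 times as high at 24 h and then 0.495 of that at 72 h. Per 100 FPKM of the leukocyte sum, Ly6c2 went from 2.20 ± 0.231 in sham to 0.492 ± 0.0209 at 72 h, and Nos2 from 11.4 ± 2.36 to 0.641 ± 0.0906. The group with the highest ratio was the same for Arg1, Chil3, Cd14, Saa3 and Nos2 when Ptprc alone or the 11 macrophage genes were the reference. It moved for Plac8 from 72 h to 24 h under both, and for Ly6c2 from 6 h to sham under Ptprc alone. A ratio of this kind shows unequal change of the gene and its reference, and no test was made of it, since it takes in the AMI 24 h mice.

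**Figure D5:**
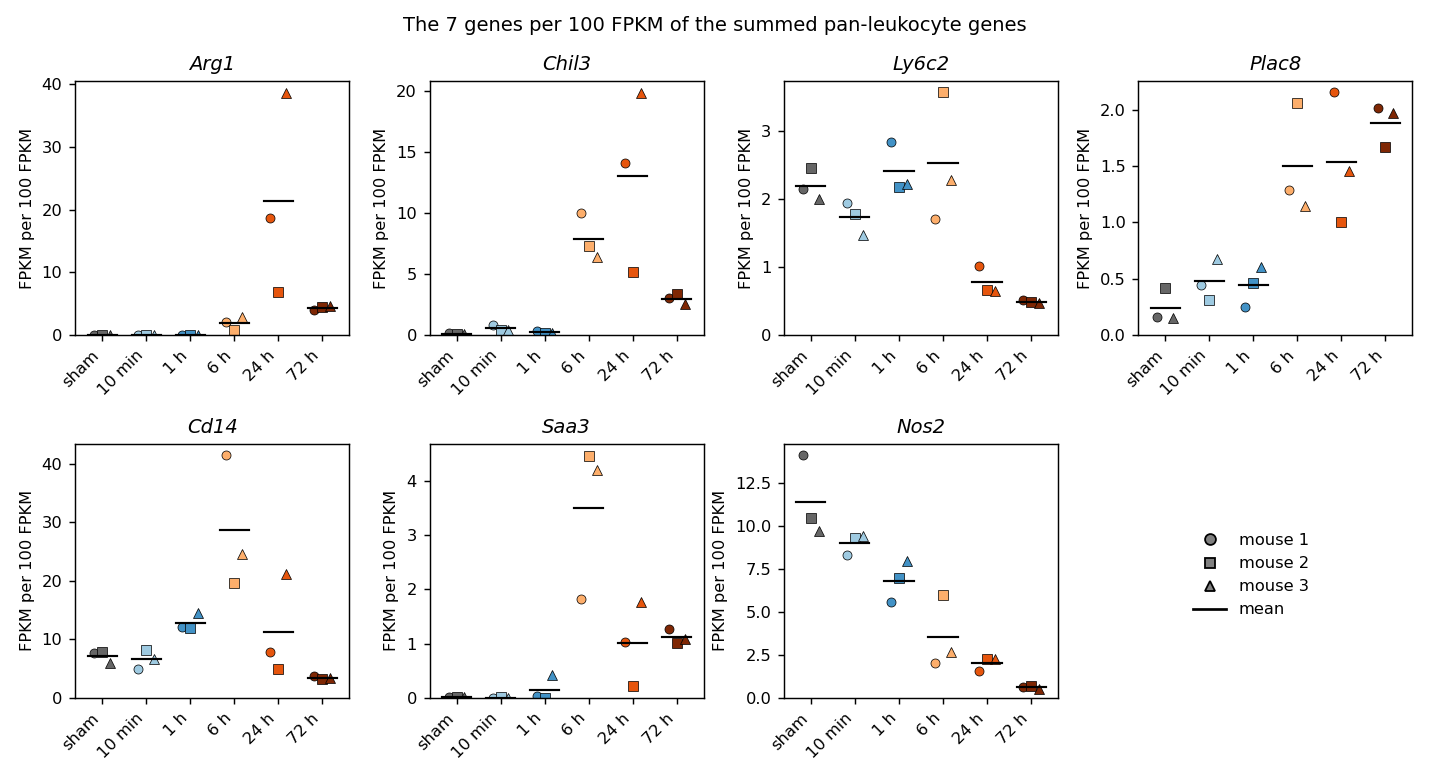
Each panel plots 1 gene in FPKM per 100 FPKM of the 10 summed leukocyte genes (vertical axis, from 0) in each mouse against the group, with lines at the means. Cd14 and Saa3 have their highest means at 6 h and Arg1 and Chil3 at 24 h, the Plac8 ranges overlap from 6 h on, and Nos2 is highest in sham and lowest at 72 h.

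The members were also alike in profile, Nos2 apart. Over the 18 mice, Pearson's r of log2(FPKM + 1) between the 15 pairs of the other 6 genes ran from 0.791 (Plac8 and Cd14) to 0.967 (Ly6c2 and Saa3), with a median of 0.908. The 6 pairs with Nos2 ran from 0.16 to 0.439. Within groups the same pairs had r between 0.726 and 0.937 and, with Nos2, between 0.439 and 0.647. The pairs share their mice and the course over time. They also take in the sham and AMI 24 h values that led to the choice of Arg1 and Chil3, so they are a description only.

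Genes with a similar course over the 18 mice were sought among the 13333 tested genes, leaving out predicted genes (Gm and Rik symbols). The 3 most similar were Spint1 (r = 0.991), Spcs3 and Esd for Arg1, and Ccl6 (r = 0.991), Pdpn and Xbp1 for Chil3. Plac8 was nearest to Lgals3 (r = 0.992), the gene of galectin-3, which went from 3.998 to 20.7, 151 and 927 FPKM in sham, 6 h, 24 h and 72 h, and then to AB124611 and Ms4a4c. Ly6c2 was nearest to Sptlc2, Clec4d and Hmox1, and Saa3 to Hmox1, Plin2 and Csf2rb2, so that Hmox1, the inducible heme oxygenase, was shared by both. Cd14 was nearest to Samsn1, Btg1 and Nlrp3, the inflammasome sensor. Nos2 had no close companion among the genes compared, its best matches being Upf1 (r = 0.853), Cactin and Atl1. For Arg1 and Chil3 the sham and AMI 24 h values that led to their choice are part of these correlations.

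The number of genes called higher among those that draw monocytes to tissue grew from 1 h to 72 h. Of 23 genes of chemokines, growth factors, their receptors and adhesion molecules, 2 of the 22 tested rose at 1 h, 15 rose and 2 fell at 6 h, 17 rose at 24 h and 20 rose at 72 h. The shares of all genes called higher grew over these comparisons too, and were 0.669%, 11.6%, 26.2% and 53.1%. The shares called lower, in the same order, were 0.0526%, 16.8%, 11.4% and 24.2%. The 2 list genes called at 1 h were the chemokines Ccl2 (1.34, SE 0.10, adjusted p = 0.000663) and Ccl7 (1.09, SE 0.11, adjusted p = 0.00325). Ccl2 had 3.25 ± 0.271 FPKM in sham, 9.76 ± 1.25 at 1 h, 66.3 ± 19.8 at 6 h and 109 ± 51.5 at 72 h. Their receptor Ccr2 was at 0.638 ± 0.139 FPKM in sham and 0.653 ± 0.224 FPKM at 1 h, and it rose by 1.13 at 6 h (SE 0.17, adjusted p = 0.00468), 3.48 at 24 h (SE 0.27, adjusted p = 0.00131) and 4.58 at 72 h (SE 0.12, adjusted p = 1.76e-08). From 24 h to 72 h it rose by another 1.10 (SE 0.27, adjusted p = 0.015), in a comparison in which 29.7% of all genes were called higher and 13.5% lower. Csf1r and Cx3cr1, the growth factor receptor and the fractalkine receptor, both fell at 6 h (-0.46 and -0.84) and were above sham at 72 h.

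A list of 20 other genes of Ly6C-high monocytes included Ccr2 from the recruitment genes and Ly6a from the Ly6 family. Of these 20, 1 rose at 1 h, 17 at 6 h, and all 20 at 24 h and at 72 h. The medians were 1.12, 2.53 and 3.58 at 6, 24 and 72 h. Of all genes, 0.669%, 11.6%, 26.2% and 53.1% were called higher at 1, 6, 24 and 72 h. The shares called lower, in the same order, were 0.0526%, 16.8%, 11.4% and 24.2%. The 3 not called at 6 h were Fn1, Lyz2 and S100a4, and Lyz2 had 141 ± 14.8 FPKM in sham and 143 ± 36.9 FPKM at 6 h. Ms4a6d (5.24) and Thbs1 (5.07) had the largest rises of the list at 72 h. Of 8 tested genes of patrolling monocytes, which include Itgal and Cx3cr1 from the recruitment genes, 2 rose and 2 fell at 6 h. Of all genes, 11.6% were called higher and 16.8% lower there. At 72 h, 7 rose and 1 fell, beside 53.1% of all genes higher and 24.2% lower. The one that fell, Eno3, is the muscle enolase and was at 962 ± 35.1 FPKM in sham hearts.

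The opposed states of macrophages were followed with a list each, and the difference between the lists was not tested. Of 17 tested genes linked to alternative activation, the state that Arg1 and Chil3 are often taken to mark, 10 rose at 6 h, 11 rose and 1 fell at 24 h, and 12 rose and 2 fell at 72 h. Msr1 (4.58) and Cd200r1 (3.26) rose most at 72 h, whereas Retnla, often named with Arg1 and Chil3, fell by 1.77 at 24 h and by 1.71 at 72 h (adjusted p = 0.00235 and 0.000396). Of 16 tested genes linked to classical activation, the state that Nos2 is taken to mark, 7 rose and 2 fell at 6 h, 5 rose and 3 fell at 24 h, and 14 rose at 72 h. The background for both lists was 11.6% higher and 16.8% lower of all genes after 6 h, 26.2% higher and 11.4% lower after 24 h, and 53.1% higher and 24.2% lower after 72 h, so the 24 h counts of the second list lay near it. Cxcl10 (3.36) and Irf5 (2.93) had the largest rises of this list at 72 h.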

How the data were processed

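The authors purified polyadenylated RNA from the heart tissue of 18 mice, ran cutadapt 1.18 to trim reads and HISAT2 2.1.0 to map them to mm10, and estimated expression with StringTie 1.3.4d, and per the labels Cufflinks and Cuffdiff also belonged to their tools. The deposited table holds their FPKM for 24419 gene symbols in 18 mice, and all 18 columns were matched to a mouse by name. FPKM are scaled within each library, so a gene can change because others did, and counts were not analysed here.

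The 7 genes, the gene lists and the tests were chosen with earlier results of these data known. Genes that reached an FPKM of 1 in any mouse were kept (13333). Values were tested as log2(FPKM + 1), pseudocount 1, which understates changes of low genes, with limma 3.58.1 in R 4.3.3 (lmFit, then eBayes with a variance trend). Each comparison used its own 6 mice, was two-sided, and was adjusted by Benjamini-Hochberg over all genes tested, with a threshold of 0.05. Members were given no test in comparisons that include the AMI 24 h mice. An exact permutation test of 3 mice against 3 has 0.1 as its smallest p, so none was used. No pair of libraries was identical. Named list genes were the 2 largest rises and the largest fall at 72 h, relatives, transporters and receptors of members fixed by name, Ccl2, Ccl7 and Ccr2, and for each member the 3 genes nearest in profile. Csf1r, Cx3cr1, Fn1, Lyz2 and S100a4, which make up small counts, were named after their values were seen. Alternatives were other scalings (rescaled sums, median of ratios, quantiles), a pseudocount of 0.1, other filters, 1 fit over all mice, no variance trend, a replicate block and leaving out each mouse. Sequences came from RefSeq (GRCm38.p6) and GENCODE M21, motifs were searched in Python 3.11.15, and 4 members had a promoter window that was used. The sequence of Cd14 is not reported here.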

Additional observations from a re-analysis of the deposited data

Results flagged for a closer look

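For 6 of the 7 genes the level differed between the AMI 6 h and AMI 72 h mice, in a direct test of these groups (limma, adjusted p under 0.05). Relative to 6 h, the AMI 72 h level was higher by 3.75 on the log2(FPKM + 1) scale for Arg1 (adjusted p = 0.000135), 2.85 for Plac8 (7.87e-06), 1.498 for Chil3 (0.0165), 1.28 for Saa3 (0.000151), 0.57 for Nos2 (0.0121) and 0.56 for Ly6c2 (0.00917). In each of the 6 genes all 3 AMI 72 h mice were above all 3 AMI 6 h mice. How many of all tested genes were separated in this way was not counted, so this adds nothing to the calls. In the same comparison 50.3% of all tested genes were called higher and 16.7% lower. The median of all tested genes there was 0.33, so that Nos2 and Ly6c2 stood little above it. For Cd14 the value was 0.00023, which was not called. After median-of-ratios scaling the calls of Chil3, Ly6c2 and Nos2 were lost (limma adjusted p = 0.0675, 0.225 and 0.284), and only those of Arg1, Plac8 and Saa3 stayed.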

How the results depend on the processing

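All 26 calls of members held their direction in each of the 390 recomputed values, and 33 of these were no longer past the threshold. After median-of-ratios scaling, 3 members in place of 6 were called higher at 72 h against 6 h, Nos2 between 1 h and 6 h turned to 0.014 and Cd14 between 6 h and 72 h to -0.40 (-0.24 after quantile normalization), neither called. With either of these scalings 1 member, Nos2, was called lower at 72 h against sham, where none was before. In 1 fit over all mice, 0 members were called at 1 h (1 before) and 0 lower at 6 h (1 before).

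Counts over the list genes moved as well. Lower calls at 10 min became 1 with a filter on the mean FPKM and 1 with quantiles (0 before). For 6 h lower calls became 4 with median of ratios (8 before), and for 72 h 17 with quantiles (11 before). For 6 h against 1 h they became 4 with no filter and 4 with median of ratios (8 before), for 72 h against 6 h 32 and 35 with median of ratios and quantiles (21 before), and for 72 h against 24 h 14, 12 and, in 1 fit over all mice, 10 (6 before). At 1 h, 3 list genes were called higher in 1 fit over all mice (9 before).

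Leaving out each mouse in turn gave 4 to 6 members higher and 0 to 1 lower at 6 h, 3 to 6 higher at 6 h against 1 h, and 5 to 7 higher at 72 h against 6 h. The list genes called higher ran from 45 to 77 at 6 h, 33 to 79 at 24 h, 28 to 68 at 6 h against 1 h, and 34 to 75 at 72 h against 24 h, and those called lower from 0 to 1 at 1 h, 3 to 9 at 6 h, 3 to 7 at 24 h, 3 to 8 at 6 h against 1 h, and 2 to 9 at 72 h against 24 h. Uncalled values that changed sign were those of Cd14 at 10 min (-0.094 to 0.10), Arg1 at 1 h (-0.039 to 0.0014), Saa3 at 1 h (-0.00044 to 0.18), Nos2 at 72 h (-0.21 to 0.024) and at 6 h against 1 h (-0.18 to 0.061), and Cd14 at 72 h against 6 h (-0.63 to 0.72). Where a call was lost, the cause was not tested beyond the smaller number of mice.

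Replicate numbers did not pair the mice: same-numbered mice of different groups had correlations of their deviations between -0.327 and 0.415 (median -0.0171), over 0.1 in 5 of 45 pairs. With the number as a replicate block, the 6 h against 1 h call of Cd14 was lost (adjusted p = 0.053) and 4 list genes in place of 8 were called lower there.

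Levels under about 1 FPKM and the difference of Ly6c2 from Ly6c1 rest on few reads that the table does not count, so early values of Arg1, Chil3, Plac8 and Saa3 have an unknown counting error.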
